A study of Mus musculus with 6 samples.

Results

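The genes described here are 8 mouse genes of antigen presentation by major histocompatibility complex (MHC) class II, chosen by name and mapped to Ensembl identifiers, out of 56748 genes in the table: Cd74, H2-Aa, H2-Ab1, H2-Eb1, Ciita, H2-DMa, H2-DMb1 and Cd86. Expression was measured by sequencing polyadenylated RNA from homogenized brain tissue of mice that had received MCF10DCIS cells, a human breast cell line that models ductal carcinoma in situ. The cells carried CD63, a tetraspanin of extracellular vesicles, joined to the luciferase NanoLuc (CD63-NLuc). There were 3 libraries from 3 days and 3 libraries from 28 days after implantation. Every mouse in both groups carried the implanted cells and no unimplanted mouse was used here, so each comparison is of 28 days with 3 days and not of tumor with no tumor. The strain, age and sex of the host mice, and so which immune cells the host still had, are not stated in the sources used here. Each title carries a number of its own, but nothing in them states that each library is 1 animal. The p-values are therefore set against the spread between these samples, and that spread may be technical.

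MHC class II molecules carry peptides from endosomes to the cell surface, where CD4+ T cells read them. H2-Aa and H2-Ab1 encode the alpha and beta chains of the molecule I-A, and H2-Eb1 the beta chain of I-E. Cd74 encodes the invariant chain, which holds the peptide groove until it reaches the endosome, and H2-DMa and H2-DMb1 encode the chaperone H2-DM, which exchanges the invariant chain remnant for peptide. Ciita is the transactivator that switches the set on and is itself induced by interferon gamma, and Cd86 is a costimulatory ligand of CD28. In healthy brain tissue class II is scarce, being carried mainly by macrophages and dendritic cells at the borders, and microglia acquire it when activated.

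CIITA acts at class II promoters through factors bound to a conserved X box and Y box, so the promoters of the measured genes are shown to let the gene group be seen as sequence. RefSeq windows of 300 bases (250 before to 50 after the start, GRCm38.p6) existed for 4 of the 8 genes. The X box was searched as AGNNAC, any pair of bases and then ATG, and the Y box as ATTGG, on both strands, in all 32851 windows of this length. The X box letters were in 3.09% and the Y box letters in 37.4% of the windows. Both in order on 1 strand, with 28 to 38 bases between their first bases, were in 10 windows (0.0304%), and 4 of those belonged to class II genes: H2-Eb1, H2-DMb1, H2-Eb2 and H2-Ob. These letters and this spacing were set after looking at the windows, and a match is a description, not a binding site. Bases 110 to 11 before the start are printed 5′ to 3′ for 4 members, with the X box and Y box pair in capitals, or the Y box alone where there was no pair. H2-Eb1 lies at chr17:34305757-34305856 (+ strand), H2-DMb1 at chr17:34153081-34153180 (+ strand), H2-Aa at chr17:34287834-34287933 (- strand) and the upstream H2-DMa start at chr17:34122722-34122821 (+ strand), all in GRCm38.p6.
H2-Eb1: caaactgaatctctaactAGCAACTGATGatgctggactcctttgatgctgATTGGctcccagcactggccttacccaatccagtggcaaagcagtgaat
H2-DMb1: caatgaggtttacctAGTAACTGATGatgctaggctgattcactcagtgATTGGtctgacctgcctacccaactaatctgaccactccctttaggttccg
H2-Aa: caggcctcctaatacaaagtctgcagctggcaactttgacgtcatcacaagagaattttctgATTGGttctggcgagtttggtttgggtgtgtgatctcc
H2-DMa: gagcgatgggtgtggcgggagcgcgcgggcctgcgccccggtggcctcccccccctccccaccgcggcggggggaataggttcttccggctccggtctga
The first base of the Y box followed that of the X box by 33 bases in H2-Eb1 and by 34 in H2-DMb1. H2-Aa held the Y box letters without the X box letters. The window at the upstream H2-DMa start held neither set of letters.

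All 8 genes had their highest value in 1 library, day 3 replicate 1, and 7 of the 8 were there at least 4-fold above every other library on the log2(value + 1) scale. Of the 16162 genes tested, 20.5% were highest in that library and 0.6% were at least 4-fold above every other library. Tested genes had a mean of at least 10 normalized counts, which H2-Eb1, Ciita and H2-DMb1 reached only through day 3 replicate 1. For these 3, being tested and being high in that library are not independent. The counts describe 1 library and are not a difference between the time points. In day 3 replicate 2, 1.92% of the tested genes were at least 4-fold above every other library, and 0 of the 8 members were. Libraries of bulk tissue cannot tell fewer cells of a type from less RNA per cell. The depth of day 3 replicate 1, 15033955 reads, lay inside the range of the other libraries, 11958137 to 16059196. All values given as levels are normalized counts, that is reads divided by a size factor of the library, unless reads are named.

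Among the I-A and invariant chain genes, Cd74 had 3984, 54.5 and 28.0 normalized counts in the day 3 libraries, given in the order of replicates 1 to 3 throughout, against 29.9, 28.6 and 22.7 at day 28. The first library was 73.1-fold above the highest of the others and held 96.1% of the sum over the 6 libraries. H2-Aa had 1137, 27.8 and 9.74 at day 3 and 6.99, 17.0 and 12.3 at day 28. Here too the first library stood alone, 40.9-fold above the next, and of the other 5 day 3 replicate 2 was the highest. H2-Ab1 had 1326, 42.2 and 41.4 at day 3 and 6.99, 11.6 and 32.2 at day 28. It was the single member whose groups did not overlap, with day 3 replicates 2 and 3 a little above the highest day 28 library. The share of tested genes without overlap between the groups was 18.9%, or 9.21% counting those lower at day 28.

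The I-E chain and the transactivator were nearly silent outside day 3 replicate 1. H2-Eb1 had 66.9, 2.06 and 3.65 at day 3 against 4.99, 1.79 and 11.4 at day 28. The 5 lower libraries overlapped between the times. Ciita was read 115, 0 and 0 times at day 3 against 1, 8 and 0 times at day 28. Of the 5 lower libraries, only day 28 replicate 2 exceeded 3 reads. H2-Ea-ps, the alpha chain gene that pairs with H2-Eb1 and is a pseudogene in the reference strain, had 9 reads in day 3 replicate 1 and 0 in each of the others.

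The H2-DM genes differed from one another. H2-DMb1 had 59.5, 2.06 and 2.43 at day 3 against 11.98, 2.68 and 0.948 at day 28, again high in 1 library alone. H2-DMa had 329, 125 and 127 at day 3 and 181.7, 141.1 and 167.8 at day 28. Its excess in day 3 replicate 1 over the highest other library was 1.81-fold, the smallest of the 8 genes, and day 3 replicates 2 and 3 were the lowest of the 6 libraries. H2-DMb2, a close copy of H2-DMb1, had 72.4, 6.17 and 2.43 at day 3 and 11.98, 0.893 and 0.948 at day 28. Reads may be split between these copies, so the value of each is uncertain while both followed the same order of libraries at the top. Cd86 had 56.8, 11.3 and 8.52 at day 3 and 12.98, 13.4 and 7.58 at day 28. Its first library was 4.24-fold above the next, just past the 4-fold mark.

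**Figure D1:**
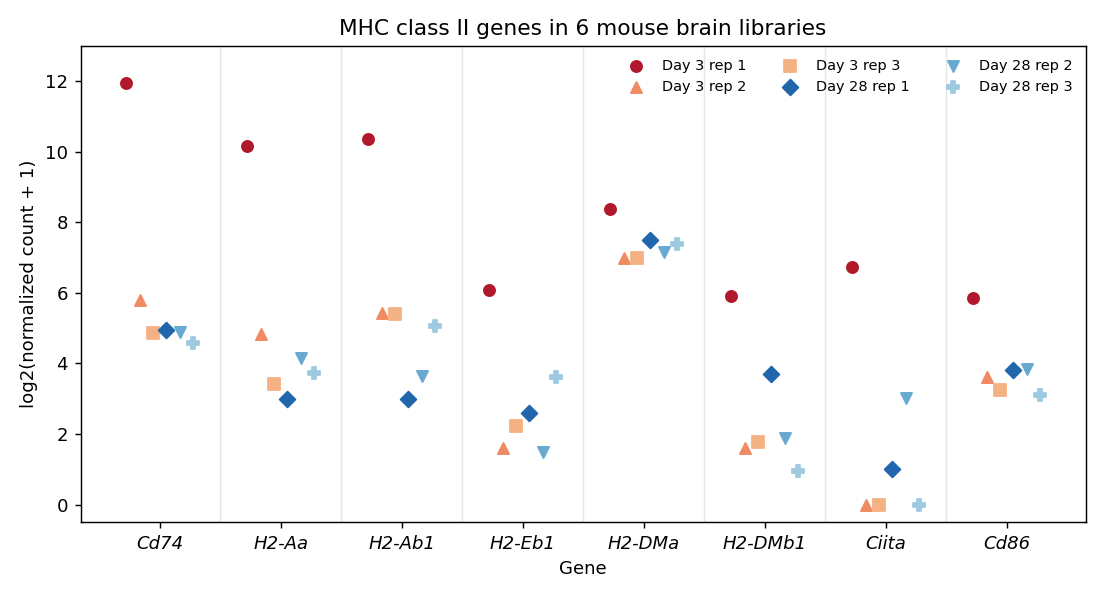
Levels of the 8 genes on the deposited log2(normalized count + 1) scale, 1 point per library (circle, triangle and square: day 3 replicates 1 to 3; diamond, inverted triangle and plus: day 28 replicates 1 to 3). Day 3 replicate 1 is the highest point for every gene, and for H2-DMa the gap is the smallest, 329 against 181.7 normalized counts.

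Per kilobase of the principal transcript in GENCODE M21, the order of the levels also differed between day 3 replicate 1 and day 28. In day 3 replicate 1 the level per kilobase was 2826 for Cd74, 1094 for H2-Ab1, 1008 for H2-Aa and 198 for H2-DMa, followed by 42.4 for H2-DMb1, 40.1 for H2-Eb1, 22.4 for Cd86 and 17.5 for Ciita. At day 28 H2-DMa led with 98.6 ± 12.4 normalized counts per kilobase (SD, n = 3). Cd74 followed with 19.2 ± 2.71, and H2-Ab1 with 14.0 ± 11.1 and H2-Aa with 10.7 ± 4.43 did not differ from each other beyond their spread. Cd86 at 4.46 ± 1.28, H2-DMb1 at 3.71 ± 4.23 and H2-Eb1 at 3.63 ± 2.92 lay within each other's SD, and Ciita was lowest at 0.452 ± 0.644. The chaperone chain H2-DMa was thus the most abundant member at day 28, and the invariant chain in day 3 replicate 1.

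No member passed the test of day 28 against day 3 (limma, Benjamini-Hochberg over all 16162 genes, threshold 0.05). The number called was 0 of 8, against 0.192% of all tested genes (31 genes). Of those, 11 (0.0681%) were higher and 20 (0.124%) lower at day 28, or 29 and 19 when scaled to the upper quartile. At an unadjusted p below 0.05 there was 1 member, against 13.4% of all genes, and voom on the recovered reads called 0 of all genes. All 8 passed the filter of a mean of at least 10 normalized counts, but H2-Eb1, Ciita and H2-DMb1 would not have passed without day 3 replicate 1. The median log2 difference of the 8 was -0.91, against -0.01 over all genes tested, and without day 3 replicate 1 it was 0.26.

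H2-Ab1 had the smallest p, with means of 469.9 ± 742 at day 3 and 16.9 ± 13.4 at day 28 (SD, n = 3) and a log2 difference of -3.17 (SE 1.22, limma adjusted p = 0.306). Cd74 stood at 1356 ± 2277 and 27.1 ± 3.82, a log2 difference of -2.73 (SE 1.52, limma adjusted p = 0.478). The SD at day 3 exceeded the mean in both genes because 1 of the 3 libraries held nearly all the reads. H2-Aa had a log2 difference of -2.51 (95% interval -5.79 to 0.77). For H2-DMb1, Ciita, H2-Eb1 and Cd86 the log2 differences were -0.92, -0.90, -0.74 and -0.66, and all 4 intervals spanned 0. H2-DMa had the narrowest interval, -0.89 to 0.70 around a log2 difference of -0.09.

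Without day 3 replicate 1, the highest day 3 value of every member, each difference could only move upward. Of the 8, 5 changed sign, among them Ciita, H2-Eb1 and H2-DMb1, which had 0 to 12 reads in the libraries left. Cd74 then had a log2 difference of -0.52 (95% interval -1.54 to 0.49) and H2-Aa of -0.50 (-2.10 to 1.09). Without day 3 replicate 3 they were instead -4.07 (-7.40 to -0.75) and -3.87 (-6.87 to -0.86), and H2-Ab1 stood at -4.00, with limma adjusted p of 0.190, 0.169 and 0.148. H2-Ab1 had the largest negative difference without day 3 replicate 1, -1.52 (limma adjusted p = 0.27), and the smallest p of the 8 there also. The 5 members that changed sign ranged from 0.15 for Cd86 to 1.34 for Ciita, and H2-DMa stood at 0.37 (limma adjusted p = 0.361). None of the 8 passed in either fit.

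**Figure D2:**
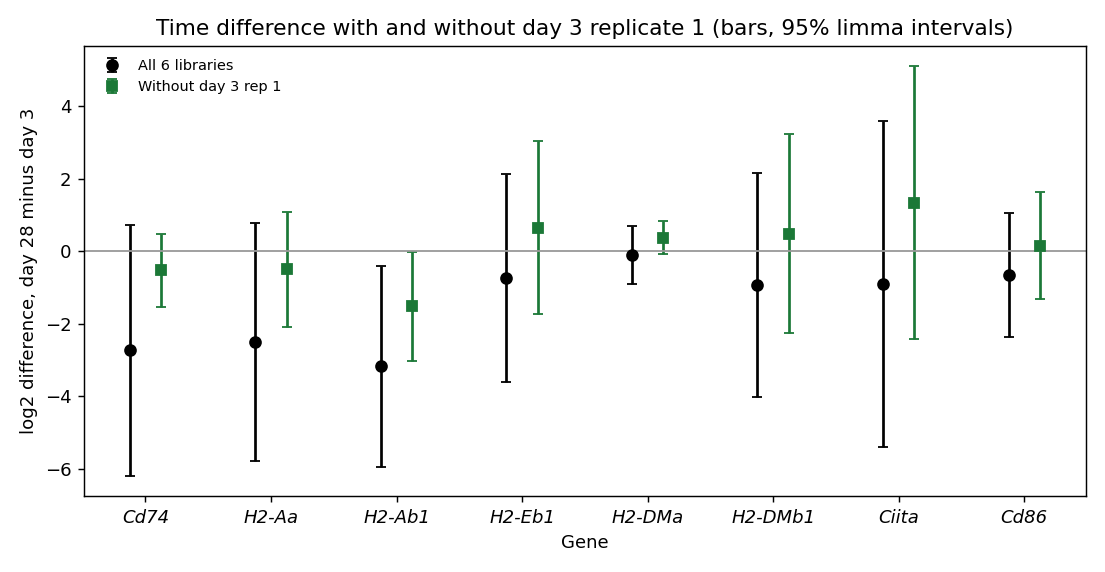
The log2 difference of day 28 minus day 3 for each gene from limma with all 6 libraries (black circles) and without day 3 replicate 1 (green squares), with 95% intervals as bars. With all libraries every point lies below 0, from -3.17 for H2-Ab1 to -0.09 for H2-DMa, and without that library 5 of the 8 lie above 0.

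The remaining class II chains and the processing enzymes were not all high in the same libraries. Of 5 further chain genes (H2-Ea-ps, H2-Eb2, H2-DMb2, H2-Oa and H2-Ob), 3 passed the filter and 0 were called. H2-Oa, the alpha chain of the H2-DM inhibitor H2-O, had 40.3, 1.03 and 1.22 at day 3 and 10.98, 5.36 and 2.84 at day 28. H2-Ob, its beta chain, had 27.5, 5.14 and 17.0 and then 19.97, 7.14 and 5.69, so its first library was 1.38-fold above the next. Of 10 processing genes 0 were called, and 8 had negative differences. The smallest p belonged to Lgmn, an endosomal protease, at 1999 ± 160 and 1465 ± 103 normalized counts (log2 difference -0.45, limma adjusted p = 0.117). Ctsb and Ctsd, the cathepsins B and D, had log2 differences of -0.33 and -0.34, with groups that did not overlap and limma adjusted p of 0.136 and 0.149. These 3 were spread over the day 3 libraries, unlike H2-Aa, H2-Ab1 and H2-Eb1: Lgmn had 2151, 2014 and 1832 there. Ctss, the cathepsin that trims the invariant chain, and Ifi30, a thiol reductase of endosomes, were the processing genes with the largest excess in day 3 replicate 1. Ctss had 2968, 912 and 982 at day 3 and 888, 855 and 807 at day 28, and Ifi30 had 119, 41.1 and 26.8 and then 10.98, 25.9 and 24.6.

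Among 18 regulators of class II and the interferon gamma pathway 16 were tested and 0 called. The constitutive factors of the X box and Y box, Rfx5, Rfxap, Rfxank, Creb1, Nfya, Nfyb and Nfyc, were read in every library, and in none of these 7 genes did day 3 replicate 1 exceed the next library by more than 1.19-fold. Rfx5 had 407, 227 and 303 at day 3 against 326, 268 and 341 at day 28. Irf1, an interferon-induced transcription factor, was high in the same library as Ciita, with 400.3, 49.4 and 40.2 at day 3 against 53.9, 46.4 and 37.9 at day 28. Its day 3 replicates 2 and 3 did not stand apart from day 28. Of the receptor chains, Ifngr1 had 226, 221 and 207 at day 3 and 135, 176 and 159 at day 28 (log2 difference -0.48, limma adjusted p = 0.249), even over its 3 libraries. Ifng, the cytokine itself, had 1 read in day 3 replicate 1 and 0 in the other libraries.

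The 10 genes most like the members over the 6 libraries included Ubd, Hoxb8, Gm4841, Copa, Tap1, Irgm1, Fgd2, Irf1 and Podxl. Likeness was Pearson's r with the mean deviation of the 8 members, and these 10 had r from 0.994 to 0.998. The likeness rests in large part on day 3 replicate 1, and over the other 5 libraries it varied by gene. There r was -0.11 for Tap1 and -0.09 for Irgm1, against 0.74 for Copa, 0.74 for Podxl, 0.78 for Irf1 and 0.84 for Fgd2. In all, 219 of the tested genes had r above 0.9. Ubd, an interferon-induced ubiquitin-like protein, Gm4841 and Hoxb8 had reads in day 3 replicate 1 alone. Each of them passed the filter only through that library, so being tested and being like the members are not independent. The size of the excess varied among the 10: Tap1, the peptide transporter of class I, had 746 normalized counts against 33.9 in the next library, and Copa, a coat protein of transport vesicles, had 2448 against 2239. Hoxb8, a homeobox gene of the caudal neural tube, had 175 normalized counts in that library and 0 in the other 5, and its part in the class II values was not tested.

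Class I genes were high in day 3 replicate 1 together with class II, and B2m and H2-K1 were also above every day 28 library in day 3 replicate 2, as were Cd74, H2-Aa and H2-Ab1 by smaller ratios. Of 15 class I presentation genes 13 were highest in day 3 replicate 1, 6 were at least 4-fold above every other library there, and 0 were called between the times. B2m, the class I light chain, was 9.43-fold the day 28 mean in day 3 replicate 1, 4.07-fold in replicate 2 and 1.08-fold in replicate 3. H2-K1, a class I heavy chain, was 13.2-fold, 5.07-fold and 0.999-fold. Cd74 was 147-fold, 2.01-fold and 1.03-fold in the same libraries. In replicate 2 the ratio was 2.30 for H2-Aa and 2.49 for H2-Ab1, but 0.999 for Cd86, 0.767 for H2-DMa, 0.395 for H2-DMb1 and 0.340 for H2-Eb1. The difference between the class I and class II ratios was not tested. H2-T23 had the second smallest p of the class I list, with 196, 57.6 and 32.9 at day 3 and 22.0, 8.93 and 17.1 at day 28 (log2 difference -2.19, limma adjusted p = 0.198). Class I heavy chains share sequence, so reads may be split among them. Of the 15 class I genes, 9 had a day 3 replicate 2 value above replicate 3 and every day 28 library, as had 3 of the 8 members. The share of all tested genes under this rule was not counted, so these counts are not read as a trait of either list. Others of the class I list had lower ratios in replicate 2, at 0.921 for Tap1, 0.969 for Tap2 and 1.25 for Nlrc5. Nlrc5 had 487 normalized counts in day 3 replicate 1 against at most 9.98 elsewhere. Psmb9, an interferon-induced proteasome subunit, was also high in day 3 replicate 1 and not in replicate 2. It had 353 normalized counts in day 3 replicate 1, 3.08 in replicate 2 and 15.2 to 22.3 at day 28.

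**Figure D3:**
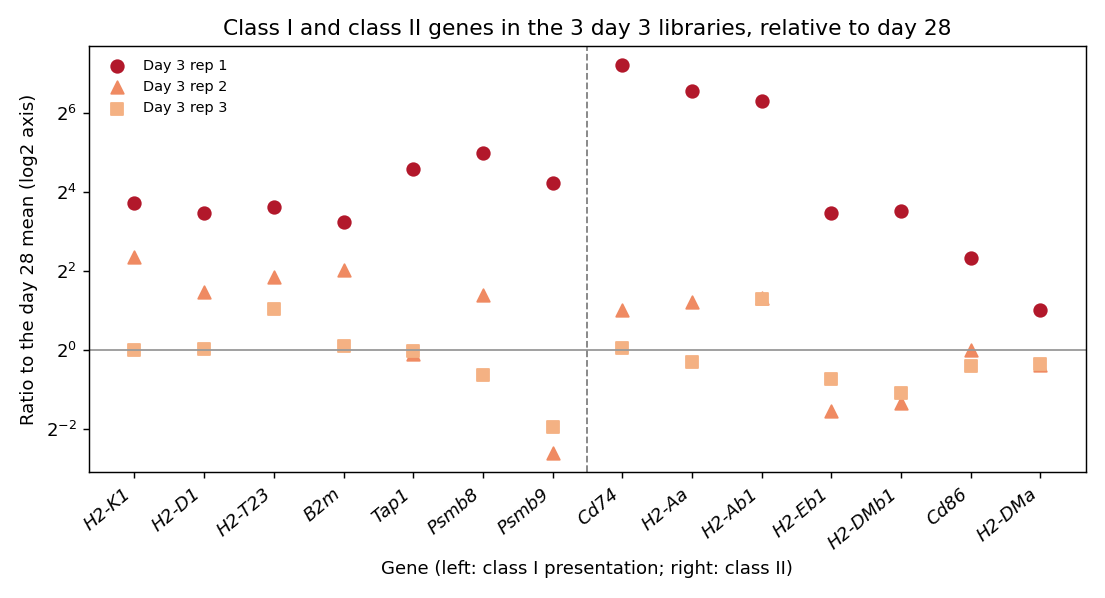
Ratio of each day 3 library to the day 28 mean for 7 class I presentation genes (left of the dashed line) and 7 class II genes (right), on a log2 axis; circles, triangles and squares are day 3 replicates 1 to 3 and the grey line marks equal levels. In replicate 2 the ratio is 4.07 for B2m and 5.07 for H2-K1 and 2.01 for Cd74, while in replicate 1 it is 9.43, 13.2 and 147; the genes were chosen after their values were seen and Ciita is left out because replicates 2 and 3 had 0 reads.

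The interferon-stimulated genes held examples of both patterns. All 24 were highest in day 3 replicate 1 and 19 were at least 4-fold above every other library, 17 of them among the 22 tested. Between the times 0 of the 22 were called. Gbp4, a guanylate-binding protein, had 2407, 18.5 and 8.52 at day 3 and 91.8, 28.6 and 27.5 at day 28, high in 1 library alone. Iigp1, an immunity-related GTPase, had 1384, 351 and 4.87 and then 23.96, 11.6 and 1.90, with a second high value in day 3 replicate 2. Isg15 had the smallest p of the list, with 136, 21.6 and 10.95 at day 3 and 7.99, 3.57 and 1.90 at day 28 (log2 difference -2.76, limma adjusted p = 0.253). Gbp4, Iigp1 and Psmb9 were named after their values were seen.

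Markers of the cells that can carry class II differed in whether they were high in day 3 replicate 1. The brain tissue of the labels showed its neuronal markers, with summed levels of 10 neuronal genes from 105648 to 118322 in the 6 libraries. The 20 microglia genes summed to 13368 in day 3 replicate 1 against 7322 and 8428 in the other day 3 libraries and 7313 to 8298 at day 28, and 11 of the 20 were highest there. The homeostatic marker P2ry12 was not among them, at 439.7, 345 and 509.9 at day 3 against 671, 708 and 567 at day 28. The 8 monocyte genes summed to 2456, 2167 and 1168 at day 3 and 1063 to 1327 at day 28. Most of that sum was Fn1, Vcan and Ace, which brain tissue also expresses, with 1552, 328 and 275 in day 3 replicate 2. In day 3 replicate 1, 4 of the 8 (Ly6c2, Ccr2, Plac8 and Chil3) were at least 4-fold above every other library. Of these 4, 0 passed the filter, so the share over tested genes is no background for them. Plac8 was read 50, 1 and 0 times at day 3 against 0, 1 and 0 times at day 28, and Ccr2, the receptor that brings monocytes into tissue, had 14, 2 and 0 and then 1, 0 and 0. The 12 border macrophage genes summed to 1262, 987 and 769 at day 3 and 664 to 764 at day 28. In day 3 replicate 1, 6 of the 12 were highest and 0 were at least 4-fold above the rest. Ccr7, carried by migrating dendritic cells, had 0 reads in every library. Of the 12 dendritic cell genes 7 were highest in day 3 replicate 1, and 5 of the 12 passed the filter. In that library 1 gene was at least 4-fold above the rest, Xcr1 with 4 reads against 0. Itgax, also carried by activated microglia, had 43.0 normalized counts there against at most 12.5 elsewhere. The sum of the dendritic cell list, 2583 in day 3 replicate 1 and 2904 to 3536 in the others, rests on Fscn1, which brain tissue also expresses. The 8 endothelial genes summed to 4215, 2510 and 2855 at day 3 and 2892 to 3064 at day 28. In day 3 replicate 1, 6 of these 8 were highest and 0 were at least 4-fold above the rest. The part of these cells in the class II values was not tested.

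Lymphocyte markers differed in level. Cd3d had 0 reads in every library, and Cd3e had 4 reads in day 3 replicate 1 and at most 1 elsewhere. Ms4a1, a B cell surface protein, had 9 reads in day 3 replicate 2 and 0 in replicate 1. Klrb1c, a natural killer cell receptor, had 0 reads in all libraries, and Nkg7 had 5 reads in day 3 replicate 1 and 0 in the others. Over the whole lists, the summed level of 10 B cell genes was 296 to 487 at day 3 and 296 to 333 at day 28, that of 11 T cell genes 235 to 320 and 340 to 474, and that of 8 natural killer cell genes 56.0 to 245 and 77.7 to 508. These sums rested on genes also read from brain tissue, such as Ighm, Cd4 and Eomes. Pax5, a transcription factor of B cells and of the midbrain and hindbrain, had 43.0, 17.5 and 49.9 at day 3 against 13.98, 11.6 and 1.90 at day 28 (log2 difference -2.08, limma adjusted p = 0.280). Its groups did not overlap, and it was highest in day 3 replicate 3. Trbc2, a T cell receptor constant segment, had 33 to 52 reads in every library and was not highest in day 3 replicate 1. That library was highest for 2 B cell, 4 T cell and 3 natural killer cell genes of these lists. In that order 2, 3 and 1 genes of the lists passed the filter, so the share over tested genes is no background for most of them. The part of lymphocytes in the class II values was not tested.

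Cerebellar markers were high in day 3 replicates 1 and 2. The summed level of 10 cerebellar genes was 24604 and 24689 in day 3 replicates 1 and 2 and 3651 to 6697 in the other 4 libraries. Cd74 had 3984 and 54.5 normalized counts in day 3 replicates 1 and 2. The part of tissue composition in the class II values was not tested. Day 3 replicate 2 also held 124234 normalized counts over 8 liver genes, against 11343 to 15284 in the others. The list includes Ttr, which brain tissue also expresses, so the sums of the other libraries are not read as liver RNA.

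**Figure D4:**
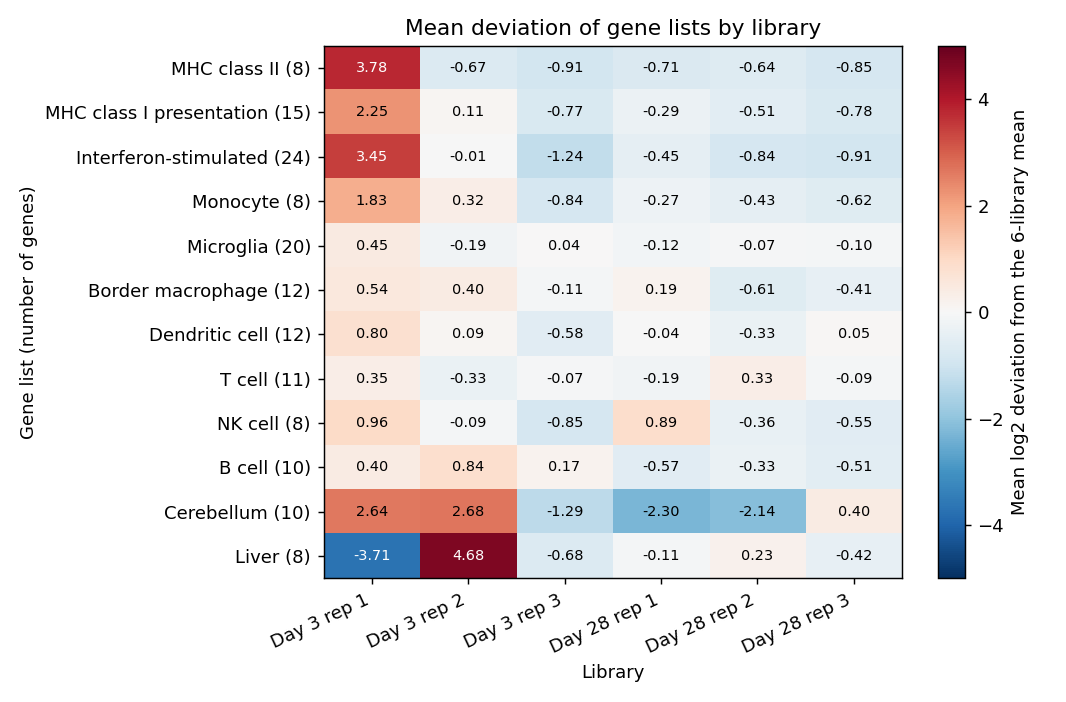
Mean log2 deviation from the 6-library mean for 12 gene lists (rows, number of genes in brackets) in each library (columns), in red above and in blue below the mean. The class II row reads 3.78 in day 3 replicate 1 and -0.91 to -0.64 elsewhere, the interferon-stimulated row 3.45 and -1.24 to -0.01, and the cerebellar row is high in both day 3 replicates 1 and 2 (2.64 and 2.68).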

How the data were processed

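Brain RNA of 6 libraries (3 per time) was compared. The authors' deposited values are log2 of a normalized count plus 1 for 56748 genes. The genome build was GRCm39, per the submitters' processing notes, while which aligner, counter, annotation and scaling were used is not given in the sources used here. After the log2 was undone, 100% of values were whole reads times a library factor, within 0.001 reads. The recovered totals were 11958137 to 16059196. A table of gene identifiers and symbols named 52073 identifiers and 15978 of the 16162 tested, including all 8 members. Transcript lengths came from GENCODE M21.

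Genes with a mean of at least 10 normalized counts were tested with limma 3.58.1 in R 4.3.3 on the deposited log2 scale with pseudocount 1, group as the only term, and an intensity trend (residual degrees of freedom: 4). Two-sided p-values were adjusted by Benjamini-Hochberg, with a threshold of 0.05. The log2(value + 1) scale understates changes of low genes. The procedure was tested on simulated data. Libraries of 1 group differed beyond sampling noise. The chi-square over its degrees of freedom was 9.00 to 11.1 between day 28 libraries and 29.7 to 44.8 between day 3 libraries. The fit takes 1 variance per gene for both groups, so its standard errors and intervals do not follow that difference. The members and gene lists were chosen with earlier results of these data known. Named genes were the 8 members, up to 4 of smallest p per list and the 10 most like the members, and other genes were named after their values were seen. Some genes of these lists are not reported here. Lists of class I, interferon, monocyte, microglia, border macrophage, dendritic, endothelial, lymphocyte, cerebellar, liver and neuronal genes are described by counts and sums. Alternatives covered pseudocount, filter, scaling, variance model, library weights, voom, replicate number, threshold and leaving out libraries. Figures were drawn with matplotlib 3.10.9.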

Additional observations from a re-analysis of the deposited data

How the results depend on the processing

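Over 19 alternatives no member passed the threshold, and the lowest adjusted p was 0.148 (limma), for H2-Ab1 without day 3 replicate 3. The number of genes called over all genes, 31, was 48 with a mean of at least 1 or with upper quartile scaling, 3 with no intensity trend, 74 with a robust prior, 69 with library weights and 152 at an adjusted p of 0.1. It was 0 with voom (2113 at an unadjusted p below 0.05) and 0 without day 3 replicates 1 and 2 together (1904 at an unadjusted p below 0.05). With 1 library left out it was lowest, 1, when day 28 replicate 1 was dropped, and highest, 623, when day 3 replicate 3 was dropped; dropping day 3 replicate 2, day 28 replicate 2 or day 28 replicate 3 gave 2. Dropping day 3 replicate 1 gave 31, of which 16 were shared. Same-numbered deviations correlated at 0.03, 0.13 and -0.06, and those of replicate 2 were each other's best match. With 3 libraries per time, these values cannot settle whether the replicate numbers pair the libraries. With the replicate number as a block 0 genes were called (2386 at an unadjusted p below 0.05). The cause of these moves was not tested.

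Dropping 1 library at a time, the members' median log2 difference ran from -1.85 to 0.26. The log2 difference ran from -4.07 to -0.52 for Cd74, -3.87 to -0.50 for H2-Aa, -4.00 to -1.52 for H2-Ab1, -1.59 to 0.65 for H2-Eb1, -2.02 to 1.34 for Ciita, -0.33 to 0.37 for H2-DMa, -1.68 to 0.48 for H2-DMb1 and -1.15 to 0.15 for Cd86, and was highest without day 3 replicate 1 in each. Without day 3 replicates 1 and 2 together, a fit in which the lone day 3 library is assumed to vary like day 28, the signs turned for H2-Aa (0.21), H2-Eb1 (0.35), Ciita (1.34), H2-DMa (0.36), H2-DMb1 (0.40) and Cd86 (0.33). Library weights turned H2-DMa to 0.084. A filter at a mean of 50 left 4 of the 8 members. With 0 to 12 reads in the other 5 libraries, differences of Ciita, H2-Eb1 and H2-DMb1 outside day 3 replicate 1 were not detectable at this depth.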

Other observations

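Costimulatory and checkpoint genes beside Cd86 differed in which libraries were high. Cd274, the inhibitory ligand PD-L1, had 546, 12.3 and 10.95 normalized counts at day 3 and 22.0, 32.1 and 10.4 at day 28, high in 1 library alone. Icosl, a ligand of the T cell receptor ICOS, had 112, 57.6 and 45.0 at day 3 against 3.99, 23.2 and 9.48 at day 28, and all 3 day 3 libraries lay above day 28 (log2 difference -2.64, SE 0.63, limma adjusted p = 0.134). Cd83, which keeps class II at the cell surface, had 228, 352 and 282 and then 119, 188 and 202, and again the groups did not overlap (log2 difference -0.77, limma adjusted p = 0.218). Cd4, the coreceptor for class II, had 167, 175 and 229 at day 3 and 403, 257 and 324 at day 28 (log2 difference 0.77, limma adjusted p = 0.159), while Cd3d was at 0 in all libraries.

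Chemokines were among the genes with the largest excess in day 3 replicate 1, where Cd74 ranked 4, H2-Aa 9 and H2-Ab1 16 of all 16162 tested genes. Cxcl9, which draws activated T cells, had 484 normalized counts there against at most 7.20 elsewhere, Cxcl10 had 169 against 3.57 and Cxcl13, which draws B cells, had 402 against 14.3. These chemokines were chosen after their values were seen. Cxcl9 and Cxcl10 passed the filter only through that library, so being tested and ranking high there are not independent.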
